A study of Homo sapiens with 4 samples.

Results

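Azurophil granule proteases, myeloperoxidase and the genes that act on or beside them were examined in NB4 cells with and without forced JMJD3 expression. The 10 genes were taken by symbol from the 60662 genes of the deposited table: the granule serine proteases CTSG, PRTN3, ELANE, PRSS57 and CFD, the inactive protease homolog AZU1, the peroxidase MPO, the protease activator CTSC, the granule proteoglycan SRGN, and PLPPR3, a neighbour of the protease genes. NB4 is a human M3/APL line that carries the PML-RARα fusion. RNA was sequenced from cells transduced by lentivirus with an empty GFP vector (2 libraries) or with the same vector carrying JMJD3 (2 libraries), and in both groups the GFP-positive cells were sorted. It is not stated whether replicates are separate cultures, so that the p-values measure the spread between these samples, which may be technical. The comparison asks what forced expression of this H3K27 demethylase does to transcripts of a leukemic promyelocyte line. Vector replicate 1 was sequenced on another lane (20) than the remaining 3 (17).

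Azurophil granules are the first granules to form in neutrophil development, and their contents are transcribed in a burst at the promyelocyte stage. CTSG, PRTN3, ELANE and PRSS57 are made as inactive precursors and are activated by cathepsin C, which removes an N-terminal dipeptide. They are packed onto the sulfated chains of serglycin. MPO turns hydrogen peroxide and chloride into hypochlorous acid and is the enzyme by which myeloid leukemias are classically stained. In normal granulocytes these genes are shut down again as cells pass to the myelocyte stage.

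Depth and units bear on each value given here. The deposited counts turned out to be counts multiplied by a factor for each library, and dividing by that factor gave totals of 34190262 and 38947060 counts in vector replicates 1 and 2 and of 35431638 and 41876210 in JMJD3 replicates 1 and 2. After that step 93.3%, 93.4%, 93.0% and 93.0% of the values below 1000 were whole within 0.02. Levels below are counts scaled to the TMM-adjusted library size (CPM) or, where genes are set against each other, the deposited FPKM, which is per length. Fold changes and adjusted p-values are from edgeR's quasi-likelihood test with Benjamini-Hochberg adjustment over 15243 tested genes. Replicates differed by more than counting noise, with a chi-square per degree of freedom of 23.4 for the vector pair and 5.57 for the JMJD3 pair.

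KDM6B, which encodes JMJD3, was read first as a check of the labels. It was at 15.7 and 13.7 CPM in the vector libraries and at 37.8 and 44.1 CPM in the JMJD3 libraries. Both JMJD3 libraries lay above both vector libraries, with a log2 fold change of 1.48 (SE 0.13, edgeR adjusted p = 0.00116). Transcripts of the vector and of the cell's own gene are not separated by these counts.

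The markers chosen for a promyelocyte were present with 1 exception. MPO, PRTN3, AZU1 and CTSG are described below, and the surface markers CD33 and ANPEP were at 65.1 and 68.6 and at 917 and 958 CPM in the vector libraries. ELANE, otherwise a defining gene of this stage, was near 0 in all 4 libraries. Markers of other lineages were uneven. All 7 erythroid genes and PF4 and GP9 were at 0 counts and CD3D, CD3E and CD3G below 0.3 CPM, but in the vector libraries CD2 was at 3.48 and 4.85, the mast cell gene HDC at 29.6 and 29.1, and the eosinophil gene PRG2 at 180 and 206 CPM.

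Of the 10 genes, 9 passed the filter on low counts and 6 fell in JMJD3 cells at an adjusted p under 0.05, namely CTSG, PRTN3, PLPPR3, MPO, AZU1 and CTSC. Over all tested genes 19.1% fell at this limit and 21.7% rose. No member rose by edgeR, where 0 also rose at an unadjusted p under 0.05, and 0 rose by the DESeq2 Wald test or by limma on FPKM. CTSG and PRTN3 were the 2 members that fell by at least 2-fold, as 2.87% of all tested genes did, while 7.59% rose by that much. CFD, PRSS57 and SRGN did not pass the test, and ELANE was not tested. In bulk libraries fewer cells that carry a transcript and less of it per cell cannot be told apart.

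**Figure D1:**
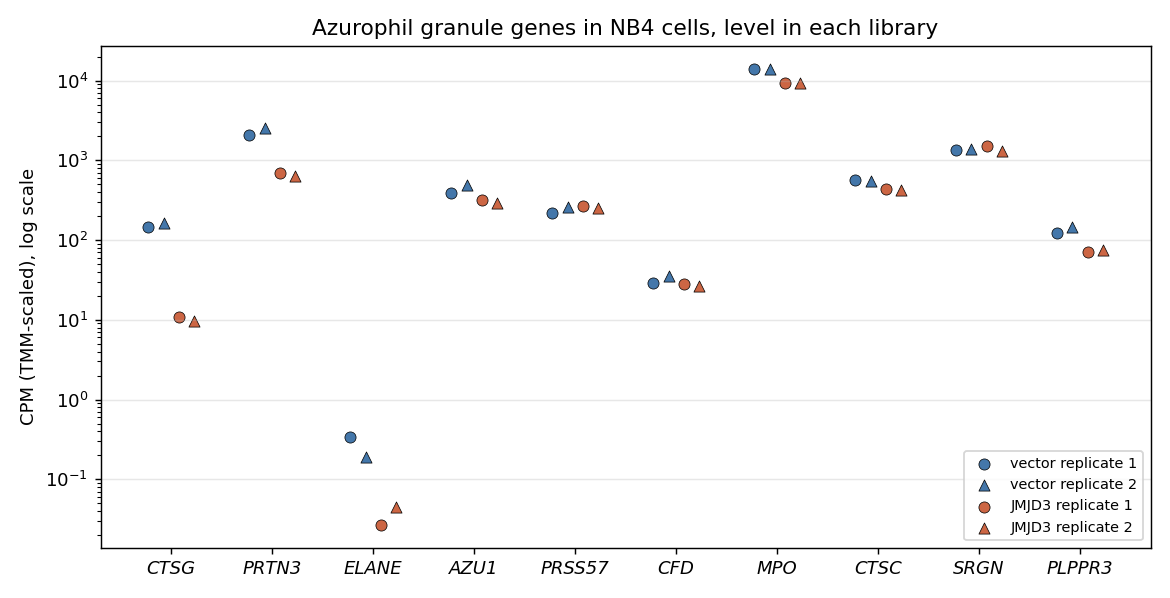
Level of each of the 10 genes in every library, as CPM on a log scale (blue, vector; orange, JMJD3; circle, replicate 1; triangle, replicate 2). MPO is at 9378 to 14090 CPM, ELANE lies below 0.4 CPM in every library, and the largest gap between the groups among the tested genes is that of CTSG.

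CTSG encodes cathepsin G, a chymotrypsin-like protease of azurophil granules and mast cells, and lies at chr14:24573518-24576250 (GRCh38.p14, gene identifier ENSG00000100448), away from the other protease genes. Its level was 144 CPM in vector replicate 1, 164 in vector replicate 2, 10.96 in JMJD3 replicate 1 and 9.60 in JMJD3 replicate 2. The groups lay far apart and each pair of replicates was close, so that the 4688 and 5971 counts of the vector libraries stood against 409 and 429. The means were 154 CPM (SD 13.5, n = 2) with the vector and 10.3 CPM (SD 0.964, n = 2) with JMJD3. The log2 fold change was -3.91 (SE 0.12, edgeR adjusted p = 9.92e-05), which leaves 6.67% of the vector level. Only 7 of the 15243 tested genes had a lower log2 fold change, and 3 of the 12387 with a mean FPKM of at least 1.

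PRTN3 encodes proteinase 3, an elastase-like protease and the autoantigen of ANCA vasculitis, and lies at chr19:840999-848175. It held 2095 and 2531 CPM in the vector libraries and 685 and 636 CPM in the JMJD3 libraries. The lowest vector value was thus well above the highest JMJD3 value. PRTN3 fell by 1.81 on the log2 scale (SE 0.11, edgeR adjusted p = 0.000416), to 28.6% of the vector level, and 128 tested genes fell further.

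ELANE encodes neutrophil elastase and lies at chr19:852303-856243, next to PRTN3. It had 11 and 7 counts in the vector libraries against 1 and 2 in the JMJD3 libraries, or 0.469, 0.299, 0.0401 and 0.0677 FPKM. In vector cells the FPKM of PRTN3 was 7997 times that of its neighbour ELANE. The summed counts were 18 against 3. Scaled to the TMM-adjusted library sizes, they gave a ratio of 7.13 between vector and JMJD3 cells. Its exact 95% interval, from 2.08 to 37.8, covers counting error only. ELANE did not reach the filter on low counts and has no test in the comparison reported here. It passed only where no filter was applied (log2 fold change -2.72, edgeR adjusted p = 0.0133, against up to 0.131 where it was tested without 1 of the JMJD3 libraries).

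AZU1 encodes azurocidin, a protease homolog that has lost its catalytic activity and acts as an antimicrobial and heparin-binding protein, and lies at chr19:827837-832018. Its level was 394 and 495 CPM in the vector libraries and 315 and 290 CPM in the JMJD3 libraries. All vector values were above all JMJD3 values, although the vector libraries differed from each other by more than vector replicate 1 differed from JMJD3 replicate 1. AZU1 fell by 0.56 on the log2 scale (SE 0.12, edgeR adjusted p = 0.0120). The fold change was -0.39 without vector replicate 2 and -0.76 without vector replicate 1, and the adjusted p reached 0.0496 without JMJD3 replicate 2, at the border of the limit.

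PRSS57 encodes a granule serine protease that cuts after arginine, and lies at chr19:685546-695452, apart from the tight group of the other proteases. Its level was 216 CPM in vector replicate 1, 261 in vector replicate 2, 264 in JMJD3 replicate 1 and 249.6 in JMJD3 replicate 2. The groups overlapped. The log2 fold change of 0.11 (SE 0.11, edgeR adjusted p = 0.451) did not pass, and its call rested on the vector libraries. Without vector replicate 2 it was 0.25 and passed (edgeR adjusted p = 0.00719, against up to 0.818 over the other alternatives), and without vector replicate 1 it was -0.07.

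CFD encodes complement factor D, the protease that cuts factor B in the alternative complement pathway, and lies at chr19:859664-863641. The vector libraries held 29.3 and 35.8 CPM and the JMJD3 libraries 28.3 and 26.6 CPM. The values barely parted. The log2 fold change of -0.25 (SE 0.13, edgeR adjusted p = 0.156) did not pass. It was -0.43 without vector replicate 1 and then passed (edgeR adjusted p = 0.000548, against up to 0.627 over the other alternatives), and it passed after the GC content correction (-0.30). MED16, on the opposite strand, overlaps 14.03% of the exon bases of CFD. Use of strand in counting is not stated, so that reads of these shared bases cannot be told apart.

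MPO, at chr17:58269855-58280935, was the most abundant of the 10 genes. It was at 13866 and 14090 CPM in the vector libraries and at 9378 and 9420 CPM in the JMJD3 libraries. Replicates of each group were nearly alike and the groups did not overlap. MPO fell by 0.57 on the log2 scale (SE 0.06, edgeR adjusted p = 0.00174), to 67.2% of the vector level.

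CTSC encodes cathepsin C, the dipeptidyl peptidase that activates CTSG, PRTN3, ELANE and PRSS57, and lies at chr11:88293592-88337736. Its level was 566 and 554 CPM in vector cells against 438 and 421 CPM in JMJD3 cells. Each pair of replicates was close and the groups did not overlap. CTSC fell by 0.38 on the log2 scale (SE 0.07, edgeR adjusted p = 0.00735). This call was lost without JMJD3 replicate 1 (-0.41, edgeR adjusted p = 0.0699) and without JMJD3 replicate 2 (-0.35, edgeR adjusted p = 0.131), at nearly the same fold change.

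SRGN encodes serglycin, the proteoglycan whose chains hold the proteases in the granule, and lies at chr10:69087603-69104811. It was at 1356 and 1384 CPM in vector cells and 1493 and 1314 CPM in JMJD3 cells, with the JMJD3 libraries on either side of the vector libraries. The log2 fold change was 0.03 (SE 0.08, edgeR adjusted p = 0.756). Its sign turned with DESeq2 size factors, with the GC content correction and without vector replicate 1 (-0.02) or JMJD3 replicate 1 (-0.06), and the carrier of the granule proteases thus had no direction in these libraries.

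PLPPR3 encodes a membrane protein of the phospholipid phosphatase-related family and is not a granule protein. It lies at chr19:812488-823797, beside AZU1. Its level was 124 and 145 CPM in the vector libraries against 71.0 and 75.1 CPM in the JMJD3 libraries, with no overlap. PLPPR3 fell by 0.88 on the log2 scale (SE 0.10, edgeR adjusted p = 0.00219), and its fold change of -1.03 without vector replicate 1 reached 2-fold.

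**Figure D2:**
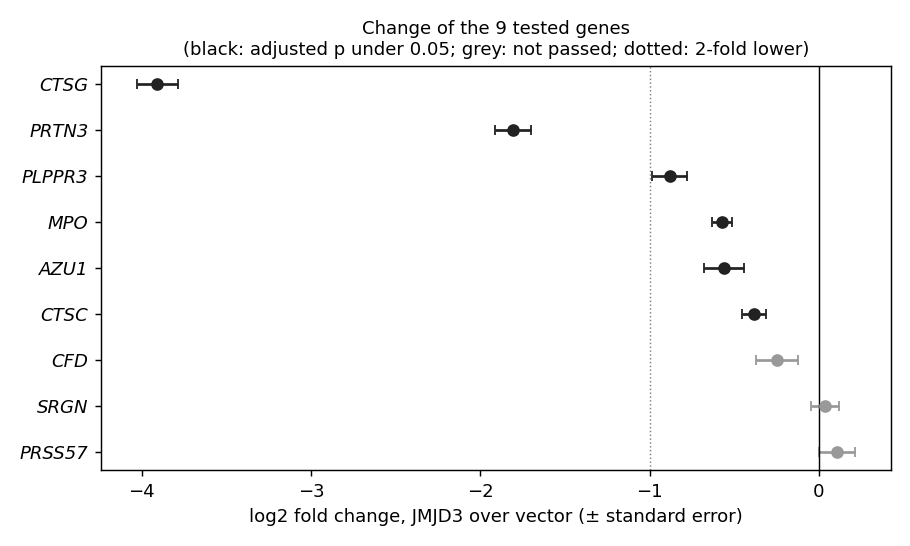
Log2 fold change of the 9 tested genes, JMJD3 over vector, with its standard error (black, adjusted p under 0.05; grey, not passed). CTSG at -3.91 and PRTN3 at -1.81 lie beyond the dotted line of a 2-fold fall, and the other 4 genes that fell lie between -0.88 and -0.38.

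The vector replicates parted from each other in several of the tested genes, and in those of chromosome 19 in the same direction. On the log2 scale, vector replicate 2 was above vector replicate 1 by 0.27 for PRTN3, 0.33 for AZU1, 0.28 for PRSS57, 0.29 for CFD and 0.23 for PLPPR3, by 0.18 for CTSG, and by 0.02 for MPO and 0.03 for SRGN. CTSC was lower by 0.03, and ELANE, on 11 and 7 counts, by 0.82. The 5 tested genes of chromosome 19 are rich in G and C, between 63.4% and 71.3% of their longest transcript, and all lie in the tenth of tested genes with the highest GC content, whose median difference between the vector libraries was 0.19. SRGN and CTSC, at 37.96% and 39.2%, lie at the other end, where the medians were -0.23 and -0.20. The part of base composition in these differences was not tested beyond the GC content correction, under which the same 6 genes and CFD fell, with CTSG at -3.96, PRTN3 at -1.84, MPO at -0.64 and CTSC at -0.54.

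The make-up of the granule transcripts shifted, since 6 of the genes fell, and by different amounts. The 10 genes together, PLPPR3 included, took 1.78% and 1.84% of all counts in the vector libraries and 1.34% and 1.33% in the JMJD3 libraries. The widest 95% Wilson interval of these shares, that of vector replicate 1, runs from 1.779% to 1.788% and covers counting error only. Most of each share was MPO, which alone took 1.316% and 1.321% in the vector libraries and 0.9875% and 1.005% in the JMJD3 libraries. The ratio of PRTN3 to CTSG, both in FPKM, was 11.9 and 12.7 in the vector libraries and 51.2 and 54.2 in the JMJD3 libraries. That of MPO to PRTN3 was 1.78 and 1.49 against 3.71 and 4.01, and that of PRTN3 to AZU1 was 6.17 and 5.93 against 2.40 and 2.41. In each ratio the replicates lay close together and the groups apart.

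**Figure D3:**
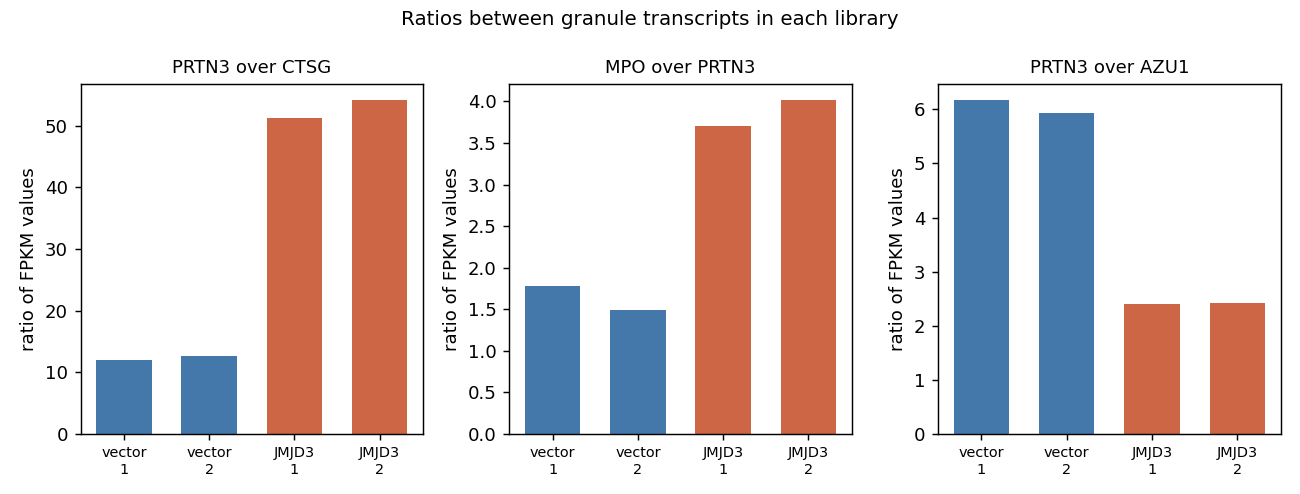
Ratios of FPKM values between pairs of granule genes in each library (blue, vector; orange, JMJD3; 1 bar per library, axes from 0). PRTN3 over CTSG is at 11.9 and 12.7 in vector and 51.2 and 54.2 in JMJD3 libraries, MPO over PRTN3 is higher and PRTN3 over AZU1 lower in both JMJD3 libraries.

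By mean FPKM, the order of the genes within vector cells was MPO, PRTN3, SRGN, AZU1, CTSC, PRSS57, CTSG, PLPPR3, CFD and ELANE. MPO held 4889 and 5055 FPKM, PRTN3 2745 and 3398, SRGN 1443 and 1509, and AZU1 445 and 573. CTSC followed at 397 and 380 FPKM. The ranges of PRSS57, at 272 and 338, and CTSG, at 231 and 268, nearly touched. In JMJD3 cells SRGN, at 1568 and 1395 FPKM, stood above PRTN3, at 884 and 828, and CTSG, at 17.3 and 15.3, stood below PLPPR3, at 40.8 and 42.9, and CFD, at 31.0 and 29.1. The values of AZU1, PRSS57 and CTSC there, 369 and 344, 329 and 313, and 313 and 311, were near each other. Among 13925 genes with at least 10 counts in every library, CTSG went from rank 545 to rank 5729 by mean FPKM, PRTN3 from 41 to 138, and MPO from 19 to 34, while PRSS57 went from 435 to 308.

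The fall of CTSG and PRTN3, on separate chromosomes, and the lack of one in PRSS57 led to a look at the bases before their starts. RefSeq promoters (GRCh38.p14) were found for 7 of the 10 genes and not for ELANE, MPO and SRGN. Shown are the 250 bases before the start of CTSG (chr14:24576251-24576500, minus strand), PRTN3 (chr19:840749-840998, plus strand), AZU1 (chr19:827587-827836, plus strand) and PRSS57 (chr19:695453-695702, minus strand), each 5' to 3' in the sense of its gene. Capitals mark, on either strand, matches to GAGGAA (as bound by PU.1), TTNCNNAA (C/EBP), AACNG (MYB) and TGNGGT (RUNX).
CTSG: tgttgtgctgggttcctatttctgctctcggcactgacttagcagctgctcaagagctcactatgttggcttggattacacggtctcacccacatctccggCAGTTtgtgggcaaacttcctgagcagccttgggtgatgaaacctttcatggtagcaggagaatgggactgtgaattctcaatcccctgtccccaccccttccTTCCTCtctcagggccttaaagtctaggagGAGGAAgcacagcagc
PRTN3: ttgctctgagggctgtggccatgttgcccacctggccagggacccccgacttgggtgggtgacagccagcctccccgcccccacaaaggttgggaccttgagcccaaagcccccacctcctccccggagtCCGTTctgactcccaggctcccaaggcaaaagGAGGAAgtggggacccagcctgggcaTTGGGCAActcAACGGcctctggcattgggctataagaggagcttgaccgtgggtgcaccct
AZU1: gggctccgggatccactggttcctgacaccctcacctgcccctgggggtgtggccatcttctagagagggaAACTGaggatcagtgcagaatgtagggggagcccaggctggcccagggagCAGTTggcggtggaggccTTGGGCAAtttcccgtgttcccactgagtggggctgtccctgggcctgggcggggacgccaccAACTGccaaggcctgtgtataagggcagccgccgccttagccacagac
PRSS57: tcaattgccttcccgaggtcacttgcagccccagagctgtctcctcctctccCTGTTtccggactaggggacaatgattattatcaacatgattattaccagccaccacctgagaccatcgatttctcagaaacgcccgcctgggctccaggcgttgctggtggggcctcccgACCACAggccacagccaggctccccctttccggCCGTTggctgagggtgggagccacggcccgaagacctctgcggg
In these windows GAGGAA was matched 2 times in CTSG, the nearer ending 11 bases before the start, and 1 time in PRTN3, and not in AZU1 or PRSS57. TTNCNNAA was matched 1 time in PRTN3 and 1 time in AZU1, AACNG 1, 2, 3 and 2 times in CTSG, PRTN3, AZU1 and PRSS57, and TGNGGT 1 time in PRSS57. Of 35116 promoters, 23.6% held GAGGAA, 33.2% TTNCNNAA, 70.6% AACNG and 37.7% TGNGGT over the same length. With such shares a match is a description of the letters and not of a bound site. The promoter of CTSC held TTNCNNAA and AACNG, and those of CFD and PLPPR3 held no match.

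Of 12 transcription factors known at promoters of this kind, 11 were tested, and 5 rose and 3 fell. Their median log2 fold change was 0.02 against 0.04 over all tested genes, of which 21.7% rose and 19.1% fell. MYB, which drives progenitor growth and binds granule gene promoters, was at 263 and 200 CPM in the vector libraries and 458 and 468 CPM in the JMJD3 libraries (log2 fold change 1.00, SE 0.13, edgeR adjusted p = 0.00265). CEBPE, also among the promyelocyte markers used here, rose by 0.73, CEBPD by 0.67, CEBPB by 0.65 and RUNX1 by 0.34 on the log2 scale. CEBPA, the factor of early granulocyte commitment, went from 218 and 256 CPM to 175 and 155 CPM and fell by 0.52 on the log2 scale. RARA fell by 0.41, where reads of the fusion gene are not separated, and the repressor GFI1 by 0.36. SPI1, which encodes PU.1, was at 216 and 254 against 205 and 182 CPM and did not pass (log2 fold change -0.28, edgeR adjusted p = 0.0715), but passed by the DESeq2 Wald test, with no filter, with the GC content correction and without vector replicate 1 (-0.44, edgeR adjusted p = 0.000175). CBFB (0.02) and IRF8 (-0.07) did not pass, and LEF1 was at 0 counts in all 4 libraries. Single libraries mattered for some calls: without JMJD3 replicate 1, CEBPB (0.48), CEBPD (0.57), RUNX1 (0.39), GFI1 (-0.36) and RARA (-0.36) did not pass, nor did CEBPA (-0.43), RUNX1 (0.29), GFI1 (-0.35) and RARA (-0.46) without JMJD3 replicate 2. RUNX1 (0.19 on log2(FPKM + 1)) and RARA (-0.36) did not pass by limma, nor GFI1 (-0.19) and RARA (-0.24) with library totals.

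PLPPR3, AZU1, PRTN3, ELANE and CFD lie within 51.2 kilobases of 19p13.3, and with PRSS57 6 of the 10 genes lie within 178 kilobases. Of 18 other genes of this region 13 were tested, and 6 fell and 1 rose, with a median log2 fold change of -0.21 against 0.04 over all tested genes. PTBP1, the splicing regulator next to PLPPR3, was at 930 and 962 CPM in vector cells against 577 and 600 CPM in JMJD3 cells and fell by 0.68 on the log2 scale. WDR18 (-0.81), RNF126 (-0.80), POLRMT (-0.73), TMEM259 (-0.64) and MED16 (-0.46) fell as well. PALM, between PRSS57 and PTBP1, rose from 2.90 and 2.99 CPM to 7.85 and 7.45 CPM, a log2 fold change of 1.38. BSG (-0.21), HCN2 (0.73), FSTL3 (-0.17), R3HDM4 (0.29), ARID3A (0.06) and CNN2 (-0.02) did not pass. Without vector replicate 1, BSG (-0.36) and FSTL3 (-0.48) passed, without vector replicate 2 R3HDM4 (0.40) passed, BSG (-0.28) passed with the GC content correction, R3HDM4 with library totals (0.46) and with no filter (0.30), and ARID3A (0.23) with library totals, and MED16 did not pass without JMJD3 replicate 1 (-0.48) or JMJD3 replicate 2 (-0.44). Genes that fell and genes that did not were interspersed along the region, and no other tested gene of it fell by as much as PRTN3. Over all tested genes 19.1% fell. On 14q11.2 the neighbours of CTSG, the protease genes CMA1, GZMH and GZMB, had at most 0.0616 CPM summed in any library and were not tested.

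**Figure D4:**
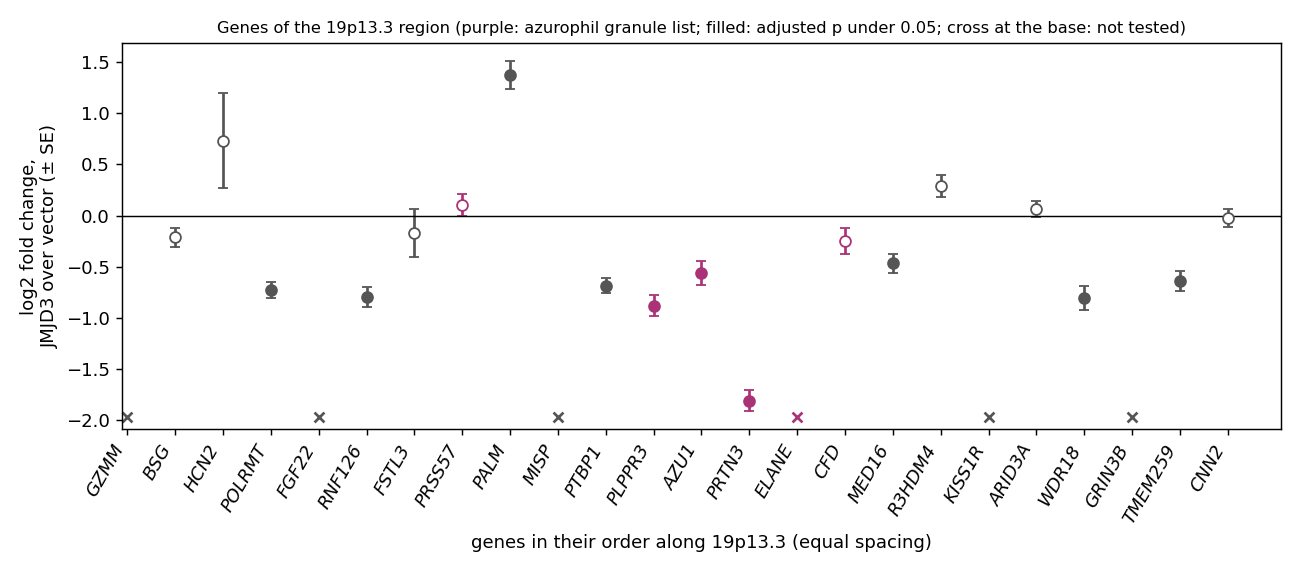
Log2 fold change with its standard error for genes of 19p13.3 in their order along the chromosome, at equal spacing (purple, genes of the azurophil granule list; filled, adjusted p under 0.05; crosses at the base, not tested). PRTN3 at -1.81 is the lowest point, PALM at 1.38 the highest, and PTBP1 and WDR18 outside the protease group lie near PLPPR3.

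Genes that work with the members moved in both directions. The counts of this and the following lists stand beside 19.1% lower and 21.7% higher over all tested genes. Of 8 other antimicrobial proteins of azurophil granules, all tested, 3 fell and 1 rose (median -0.27), against 5 lower with the GC content correction. RNASE2, the most abundant, was at 324 and 355 CPM in the vector libraries and 304 and 278 CPM in the JMJD3 libraries. RNASE2 (-0.22), LYZ (-0.18), RNASE3 (-0.06) and DEFA1 (-0.33) did not pass. The gene that rose was BPI (1.81), on 5 and 2 counts in the vector libraries against 14 and 16. By the DESeq2 Wald test and by limma on FPKM 0 were higher. With at least 10 counts in every library 1 was lower and 0 higher. These counts moved as well in fits that left out a library. DEFA4, a defensin, went from 5.48 and 7.56 CPM to 0.536 and 0.537 CPM, a log2 fold change of -3.60 (SE 0.24, edgeR adjusted p = 0.000613). DEFA1B (-3.00) and DEFA3 (-2.82) fell as well, but the copies DEFA1, DEFA1B and DEFA3 are nearly identical and the authors' counting could divide reads among them, and their summed level was 5.21, 6.27, 3.08 and 1.14 CPM over vector replicates 1 and 2 and JMJD3 replicates 1 and 2. Of 16 lysosomal-type proteins found in these granules 7 rose and 2 fell (median 0.28). GAA was at a log2 fold change of 1.32, ARSA at 0.93 and CD68 at 0.60. The 2 that fell were LAMP1 (-0.35), the most abundant of the list, and CD63 (-0.41), and with library totals 0 were lower. The list summed to 2031 and 2130 CPM in the vector libraries and to 2127 and 2106 CPM in the JMJD3 libraries. CD68 did not pass without JMJD3 replicate 1 (0.55). In this lysosomal-type list 5 genes were lower without vector replicate 1 and 5 with the GC content correction, 0 were lower without JMJD3 replicate 1 or JMJD3 replicate 2, and 4 were higher without JMJD3 replicate 1.

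Among 12 inhibitors of granule proteases 7 were tested, of which 4 fell and 0 rose (median -0.37). The most abundant, CST7, was at 212 and 260 CPM in the vector libraries and 299 and 277 CPM in the JMJD3 libraries. CST7 (0.29), SERPINA1 (0.18) and CSTA (0.02) did not pass. The list summed to 473 and 561 CPM in the vector libraries and to 522 and 486 CPM in the JMJD3 libraries. SLPI, which inhibits cathepsin G and elastase, was at 26.9 and 33.6 CPM in the vector libraries and 14.9 and 12.8 CPM in the JMJD3 libraries, and fell by 1.13 on the log2 scale (SE 0.14, edgeR adjusted p = 0.00264). CST3 (-0.41), SERPINB1 (-0.40) and CSTB (-0.37), inhibitors of cysteine or serine proteases, fell by less. These 3 did not pass without JMJD3 replicate 1 (-0.45, -0.36 and -0.41) or JMJD3 replicate 2 (-0.36, -0.44 and -0.32), nor with scaling by library totals (-0.24, -0.23 and -0.20). CST3 (-0.42) and SERPINB1 (-0.28) did not pass by limma on log2(FPKM + 1) or log2(FPKM + 0.1) either, nor did CST3 with upper quartile scaling (-0.37). Without JMJD3 replicate 1 or JMJD3 replicate 2, 1 gene of the list was lower, and without vector replicate 2, 2 were higher.

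Of 14 genes for granule sorting and congenital neutropenia, all tested, 2 rose and 1 fell (median -0.18). These counts were unstable, with 8 lower under the GC content correction, 7 lower and 5 higher without vector replicate 1, 3 lower without vector replicate 2, and 0 of either without JMJD3 replicate 1 or JMJD3 replicate 2. G6PC3, a glucose-6-phosphatase, fell by 0.48 on the log2 scale, and SLC37A4 (0.35), its partner transporter, and RAB27A (0.25), which docks secretory granules, rose. None of these 3 passed without JMJD3 replicate 1 (-0.48, 0.33 and 0.27) or JMJD3 replicate 2 (-0.49, 0.37 and 0.23). SLC37A4 (0.21 on either offset) and RAB27A (0.13 on log2(FPKM + 1)) did not pass by limma either, and RAB27A also not with DESeq2 size factors (0.21), by the DESeq2 Wald test (0.22) or with the GC content correction (0.08). Of 5 chaperones that fold MPO, HSPA5 rose (0.41) and PDIA3 fell (-0.43, not passed by limma at -0.30), with a median of -0.22, and CALR, the most abundant, was at 4289 and 4691 against 3973 and 3711 CPM. Without vector replicate 1, 3 of the chaperones were lower and 2 higher. Of 14 genes that build the chains of serglycin, 13 were tested and 5 rose and 1 fell (median 0.13). XYLT1, which starts a chain, rose by 1.51 on the log2 scale, CSGALNACT2 by 0.92, and the sulfotransferases CHST12 by 0.78 and CHST11 by 0.51, beside the flat level of SRGN itself. CHST11 did not pass with limma on FPKM (0.03). UST, also a sulfotransferase, with a mean FPKM below 1, fell from 2.50 and 2.99 CPM to 0.322 and 0.425 CPM, a log2 fold change of -2.85, the largest in the list, and 4 genes of this list were lower without vector replicate 1.

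Secondary and tertiary granule proteins, made after the azurophil set, were uneven, with 9 of 17 tested and 3 higher and 3 lower (median -0.02). HP went from 3.30 and 3.78 CPM to 0.214 and 0.112 CPM (log2 fold change -4.45), CHI3L1 from 357 and 387 CPM to 99.4 and 91.5 CPM (-1.96), and MMP25 rose by 1.22. By the DESeq2 Wald test 1 gene of the list was higher, and with at least 10 counts in every library 1 was higher and 1 lower. Fewer were higher without JMJD3 replicate 1 as well. LCN2, CRISP3, CEACAM8, OLFM4 and MMP8 were at 0 counts in all 4 libraries, where 3 counts, the limit that counting error alone sets for such a gene, are worth 0.0716 to 0.0877 CPM of the library total. Of 10 other serine proteases of blood cell granules 3 were tested and all 3 rose. They were tryptase genes, among them TPSB2 from 0.616 and 0.575 CPM to 3.97 and 3.62 CPM (log2 fold change 2.67) and TPSAB1 at 2.06, near-identical copies between which reads could be divided.

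**Figure D5:**
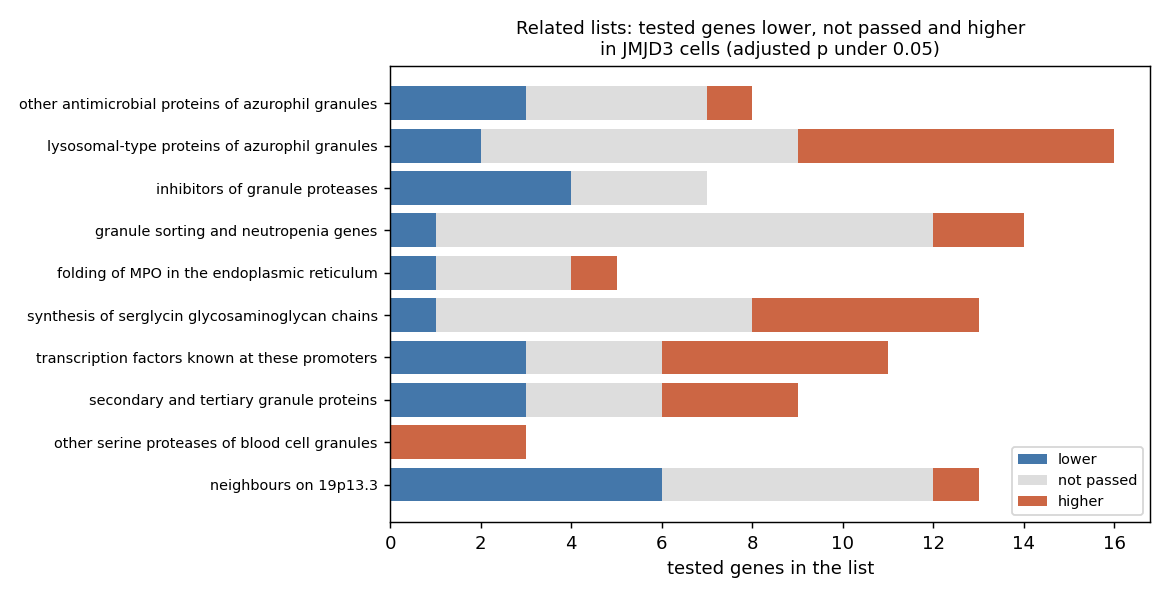
Tested genes of each related list that were lower (blue), did not pass (grey) or were higher (orange) in JMJD3 cells at an adjusted p under 0.05, as counts of genes. More genes are lower than higher among 19p13.3 neighbours, protease inhibitors and other antimicrobial proteins. More are higher in the lysosomal-type, serglycin chain, transcription factor and other serine protease lists. In the sorting list 2 are higher and 1 lower, against 1 higher and 8 lower with the GC content correction. Of all tested genes 21.7% were higher and 19.1% lower.

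Markers of other cell types were measured beside these falls, and their part in them was not tested. All 4 tested of 5 mast cell and basophil markers rose, and the list summed to 33.8 and 33.1 CPM in the vector libraries and 341 and 332 CPM in the JMJD3 libraries, nearly all of it HDC, which makes histamine, at 29.6 and 29.1 against 328 and 319 CPM. CPA3 of the same list was at 0.247 and 0.246 CPM in vector cells and at 0 counts in JMJD3 cells. Eosinophil markers summed to 203 and 232 against 864 and 746 CPM, with 2 of 3 tested genes higher and PRG2 the most abundant at 180 and 206 against 837 and 721 CPM. Monocyte markers summed to 35.7 and 32.9 against 51.3 and 54.5 CPM, with 2 of 4 tested genes higher, FCN1 the most abundant, and CD14 below 0.4 CPM throughout. The 4 B cell markers summed to 10.4 and 11.6 against 17.6 and 15.9 CPM, mostly CD79A, with 1 of 2 tested genes higher and MS4A1 at 0. T cell markers summed to 3.76 and 5.29 against 11.1 and 11.1 CPM, mostly CD2, the 1 gene tested, which rose. Megakaryocyte markers stayed below 3.6 CPM in sum, with 1 of 2 tested genes higher. GP1BA was the most abundant of them except in JMJD3 replicate 1, where ITGA2B was at 1.74 and GP1BA at 1.63 CPM. Nonhematopoietic markers summed to 6.72 and 7.67 against 3.51 and 2.86 CPM, with 1 of 2 tested genes lower. EPCAM was the most abundant of them in the vector libraries and KRT8 in the JMJD3 libraries. Of the 8 promyelocyte markers 7 were tested, and beside the 4 members that fell CEBPE, CD33 and ANPEP rose, with ANPEP at 1161 and 1170 CPM in the JMJD3 libraries. Mitochondrially encoded genes took 7.91% and 7.65% of the counts in vector and 5.73% and 5.86% in JMJD3 libraries, and without them the same 6 of the 10 genes fell.

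The 5 other genes whose 4 library values, as centred log2 CPM, lay nearest to the mean profile of CTSG, PRTN3, ELANE, AZU1 and MPO were drawn from 8924 genes with a mean of at least 10 CPM. They were ID2 (distance 0.0627), CHI3L1 (0.156), ATF5 (0.270), PTPN3 (0.274) and MIR17HG (0.327). ID2, an inhibitor of helix-loop-helix factors, was at 23.4 and 23.8 CPM in vector cells and 5.71 and 6.15 CPM in JMJD3 cells, and CHI3L1 was the same secreted granule protein described above. With 4 libraries in 2 groups, such a likeness mostly reflects the size of the fall, which was between -2.13 and -1.65 on the log2 scale in these 5 genes. CTSG (-3.91) fell by more than these, and AZU1 (-0.56) and MPO (-0.57) by less, so that the mean profile is not that of each member. ELANE enters it on 11, 7, 1 and 2 counts.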

How the data were processed

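RNA-seq of NB4 cells was compared between 2 vector and 2 JMJD3 libraries, grouped by the labels. The members and lists were chosen with earlier results of these data known. In the authors' table each gene has, for each library, an estimated count, made by their counting step from aligned reads, and an FPKM, which they further divided by length and depth. The deposited table also holds the authors' mean FPKM, log2 fold change, p-value and FDR, which were not used. The paper's methods name STAR, hg19, HTSeq-count and DESeq2, the submitters' processing notes name CASAVA 1.8, TopHat2 2.0.4, RSEM, edgeR and GRCh38, and the series text names other tools, so that which made the table is not given in the sources used here. Gene positions and promoters are from RefSeq GRCh38.p14, and exon overlaps and GC content from GENCODE.

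The most common nonzero value of a count column, 1.143, 1.047, 0.993 and 0.829 in vector replicates 1 and 2 and JMJD3 replicates 1 and 2, was taken as the worth of 1 count. These factors lie within 0.486% of the inverse of DESeq2's size factors. The plan assumed counts as deposited, so that this step departs from it. Counts were divided by this factor, rounded to whole numbers, filtered with filterByExpr, and scaled with TMM. The test was edgeR 4.0.16 (glmQLFit, glmQLFTest) under R 4.3.3, in 1 fit with no covariate, and was tried on simulated data. The standard error is the fold change divided by the square root of F. Fits that left out a library take the lone sample to vary like the other group.

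Alternatives were other scalings, filters and thresholds, the Wald test of DESeq2 1.42.0, limma 3.58.1 with log2(FPKM + 1) or with log2(FPKM + 0.1), a replicate block, each library left out, and a fit without mitochondrial genes. Deposited counts, a GC content correction and a crossed block were added after seeing the data. Genes named were the 10 members, KDM6B, up to 4 genes in each of 11 related lists (adjusted p under 0.05, mean FPKM of at least 1, by size of fold change), all tested transcription factors and 19p13.3 neighbours, and the 5 genes nearest in profile. For 1 gene that this rule names no result is given. Genes at 0 counts and other genes named beside these, with 9 marker lists, were chosen after their values were seen or as markers.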

Additional observations from a re-analysis of the deposited data

How the results depend on the processing

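Over 19 alternatives the number of members lower in JMJD3 cells was between 5 and 7 (6 in the comparison reported), and between 2 and 3 at 2-fold (2 reported). CTSG, PRTN3, PLPPR3, MPO and AZU1 fell under each alternative of the fit, and KDM6B rose under each, with a log2 fold change from 1.19 to 1.65. Leaving out a library in turn gave 5 to 7 members lower, 2 to 3 at 2-fold, 0 to 1 higher (1 without vector replicate 2, PRSS57) and 0 higher at 2-fold, with KDM6B at 1.36 to 1.59. AZU1 did not pass at an adjusted p under 0.01, which leaves 5. With the authors' factor kept (chosen after seeing the data), member counts were the same.

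Scaling by library totals alone moved the median of all genes by 0.168 on the log2 scale, from 0.04 to 0.21, and the members moved by about the same amount. The share of calls that were higher was 53.1% in the comparison reported (3304 higher, 2915 lower), 74.8% with library totals (4779 and 1614) and 41.4% with the GC content correction added after seeing the data (3096 and 4379). With limma on log2(FPKM + 1), 293 genes were higher and 168 lower at 2-fold, against 1157 and 438 (941 and 380 on log2(FPKM + 0.1)), and 2046 genes were higher and 2261 lower without regard to size (2035 and 2291 on log2(FPKM + 0.1)). By the DESeq2 Wald test 2453 were higher and 2785 lower, and 754 higher and 324 lower at 2-fold. In these fits lower calls outnumber higher ones without the 2-fold limit, and not with it. Calls were 4627 higher and 4526 lower without vector replicate 1, 1940 and 1283 without JMJD3 replicate 1, and 1679 and 953 without JMJD3 replicate 2. Such fits take the lone sample to vary like the other group.

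Nothing states that replicate numbers pair the samples, and across genes replicate 1 deviated from its group mean with a correlation of -0.313 between the groups. With the replicate block 6 members were lower, 0 higher and 2 lower at 2-fold, KDM6B was at 1.48, and 3279 genes in all were higher and 2422 lower, with RAB27A and SERPINB1 not passing. With a crossed block, added after seeing the data, 6 members were lower and 0 higher, with 3644 genes lower and 4170 higher in all. Lower and higher genes were then 4 and 5 for transcription factors, 7 and 2 for 19p13.3 genes and 6 and 4 for the sorting list.

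Signs turned for genes that had not passed. SRGN was at -0.00108 with DESeq2 size factors and -0.13 with the GC content correction, and from -0.0578 (without JMJD3 replicate 1) to 0.13 over the fits without a library. PRSS57 was then from -0.0676 (without vector replicate 1) to 0.25. CBFB was at -0.0104 with DESeq2 size factors, -0.00609 by the DESeq2 Wald test and -0.11 with the GC content correction, IRF8 at 0.10 with library totals and 0.13 and 0.14 by limma, FSTL3 at 0.0301 by limma on log2(FPKM + 1) and 0.0340 on log2(FPKM + 0.1), ARID3A at -0.00813 with the GC content correction, and CNN2 at 0.0163 with upper quartile scaling and 0.15 with library totals. Without a library in turn, CBFB was from -0.13 to 0.15, IRF8 from -0.18 (without vector replicate 1) to 0.00305, FSTL3 from -0.48 to 0.14 and CNN2 from -0.14 (without vector replicate 1) to 0.0602. The cause was not tested. Over the 10 members, 155 values kept direction and side, 4 passed where they had not, 2 no longer passed and 5 changed sign. Over other named genes these were 795, 14, 51 and 18.

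In the related lists 76 counts moved by over 1.5 times and 320 did not. In the sorting list lower genes were 0 to 8 and higher genes 0 to 5 (1 and 2 reported). In the other lists lower genes were 1 to 5 (3) for antimicrobial, 0 to 5 (2) for lysosomal-type, 1 to 4 (4) for inhibitor, 0 to 3 (1) for MPO folding, 1 to 4 (1) for serglycin chain, 0 to 4 (3) for transcription factor, 1 to 4 (3) for secondary granule and 5 to 8 (6) for 19p13.3 genes. Higher genes in these lists, in the same order, were 0 to 1 (1), 4 to 10 (7), 0 to 2 (0), 1 to 2 (1), 3 to 6 (5), 2 to 5 (5), 1 to 3 (3) and 1 to 3 (1). Shares of counts and ratios of FPKM rest on no test and no scaling step between libraries. Depth limits ELANE, with at most 11 counts.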
